A study of Mus musculus with 3 samples.

Results

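The cells described here were fibroblasts of the embryonic mouse thymus that carried transcripts of Aldh1a2, Kcnj8 and Abcc9, and 1050 such cells were found among 16365 kept cells of 3 single-cell libraries. A cell was kept with at least 200 genes, at least 2000 UMIs (unique molecular identifiers, counted once per captured transcript), under 20% mitochondrial UMIs and under 5% hemoglobin UMIs. A member had a UMI of Tcf21 or Lum, none of Epcam or Ptprc, a UMI of at least 2 of Aldh1a2, Kcnj8 and Abcc9 with a sum over those 3 genes no lower than its Sfrp2 count, and fewer than 4 of the proliferation genes Top2a, Mki67, Cenpf, Birc5 and Tpx2. The measured levels of these genes chose the members, so their values are given as a description and were not tested. The libraries were made from thymic lobes of C57BL/6 embryos at E13 to E13.5 that had been digested with trypsin, with 1 library per genotype. The control was wild type (Tbx1+/+). Tbx1neo2/neo2 embryos carry a hypomorphic Tbx1 allele with an inserted neomycin cassette and serve as a mouse model of 22q11.2 deletion syndrome, in which the thymus is small. Foxn11089/1089 embryos carry a small coding deletion in Foxn1, the transcription factor that thymic epithelial cells need, and also have a hypoplastic thymus. The series asked how the cells of a small thymus differ by its genetic cause, and mesenchymal cells were among those it compared. Values for the 3 libraries are given throughout in the order control, the library labelled Tbx1neo2/neo2 and the Foxn11089/1089 library.

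Thymic mesenchyme surrounds the epithelial rudiment and supplies it with growth factors, matrix and retinoic acid, and it also gives rise to the pericytes of thymic vessels. Kcnj8 encodes the pore subunit Kir6.1 and Abcc9 the regulatory subunit SUR2 of an ATP-sensitive potassium channel, the channel that minoxidil opens and that is well known from pericytes and vascular smooth muscle. Aldh1a2 encodes the enzyme that makes retinoic acid from retinaldehyde, Tcf21 a helix-loop-helix transcription factor of visceral mesenchyme, and Lum the collagen-binding proteoglycan lumican. Sfrp2 encodes a secreted Wnt modulator, and fibroblasts high in Sfrp2 form the main class that members are set beside.

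In the mouse genome (build GRCm38) Kcnj8 lies at chr6:142564837-142571614, minus strand, and Abcc9 at chr6:142587862-142702315, minus strand, so that the 2 channel genes are neighbours on the same strand with 16247 bases between them. Aldh1a2 lies on another chromosome, at chr9:71215789-71296243, plus strand. The promoters of the 3 genes whose joint presence defines the cells are given as RefSeq gives them for GRCm38.p6, from 250 bases before to 50 bases after the annotated start. Capitals mark each CANNTG, the E-box core that helix-loop-helix factors such as Tcf21 can bind, searched on both strands, on which it reads alike. The Kcnj8 window is chr6:142571565-142571864, minus strand, the Abcc9 window is chr6:142702225-142702524, minus strand, and the Aldh1a2 window is chr9:71215539-71215838, plus strand.
Kcnj8: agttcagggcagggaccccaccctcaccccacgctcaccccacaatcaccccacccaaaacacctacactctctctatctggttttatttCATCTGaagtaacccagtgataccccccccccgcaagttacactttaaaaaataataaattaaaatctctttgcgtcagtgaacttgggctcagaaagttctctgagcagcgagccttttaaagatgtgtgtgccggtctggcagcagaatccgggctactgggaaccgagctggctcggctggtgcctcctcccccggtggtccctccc
Abcc9: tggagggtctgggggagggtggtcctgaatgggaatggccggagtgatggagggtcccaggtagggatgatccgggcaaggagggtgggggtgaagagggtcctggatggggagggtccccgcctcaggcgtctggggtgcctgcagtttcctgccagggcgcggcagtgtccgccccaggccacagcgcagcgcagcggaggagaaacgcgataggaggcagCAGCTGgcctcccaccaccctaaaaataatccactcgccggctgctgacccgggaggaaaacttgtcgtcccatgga
Aldh1a2: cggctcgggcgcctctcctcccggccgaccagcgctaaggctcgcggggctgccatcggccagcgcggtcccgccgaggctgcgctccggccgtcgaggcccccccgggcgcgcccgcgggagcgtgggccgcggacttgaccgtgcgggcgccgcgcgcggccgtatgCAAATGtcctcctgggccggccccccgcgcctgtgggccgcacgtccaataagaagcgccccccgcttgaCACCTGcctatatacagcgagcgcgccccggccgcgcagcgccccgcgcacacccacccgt

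The Kcnj8 and Abcc9 windows held 1 match each and the Aldh1a2 window held 2. Of 32851 RefSeq promoter windows of this kind in the mouse, 72.3% held at least 1 CANNTG, so these matches do not set the 3 genes apart.

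The files held 6410, 5759 and 12447 barcodes with 82936619, 137498422 and 204655055 UMIs, of which 4962, 3579 and 7824 were kept. Between 9 and 12 kept barcodes were shared by any pair of libraries, and none of them was a member in both. In the library labelled Tbx1neo2/neo2 the Tbx1 level over all kept cells was not under that of the control. Its summed level over kept cells was 1.47, 5.04 and 6.37 CPM (counts of a gene scaled to the same total for every sum of cells), with exact Poisson intervals of 1.22 to 1.77, 4.66 to 5.45 and 5.99 to 6.78. A hypomorphic allele lowers the amount of its transcript, so this level is a partial check and does not bear out the label. The pooled level also depends on the mix of cells, and the Foxn11089/1089 library was above the control as well. In Sfrp2-high fibroblasts (non-cycling, with more Sfrp2 than marker UMIs) Tbx1 stood at 8.80, 7.46 and 5.54 CPM (6.16 to 12.2, 6.33 to 8.73 and 4.35 to 6.97). The check therefore does not settle the label, and that library is called by its label throughout. A 3' count cannot check the coding deletion in Foxn1. Foxn1 stood at 40.3, 36.9 and 90.8 CPM. All intervals here are 95% intervals and cover counting error only.

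Members numbered 362 in the control, 146 in the library labelled Tbx1neo2/neo2 and 542 in the Foxn11089/1089 library. They made up 7.30%, 4.08% and 6.93% of kept cells, with exact binomial intervals of 6.59 to 8.05, 3.46 to 4.78 and 6.37 to 7.51. The ratio to the control was 0.559 (0.464 to 0.674, log method of Katz) for the library labelled Tbx1neo2/neo2 and 0.950 (0.835 to 1.08) for the Foxn11089/1089 library. Among non-cycling fibroblasts, meaning cells that met the Tcf21 or Lum, Epcam, Ptprc and proliferation criteria, members made up 36.9% of 982 cells, 12.2% of 1198 cells and 28.2% of 1924 cells. With 1 library per genotype these differences could not be tested against the spread between embryos, and the number of embryos behind each library is not given in the sources used here.

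The share in the library labelled Tbx1neo2/neo2 depended on depth and on how many marker genes were asked for. Median depth of members was 10327, 29203.5 and 14662.5 UMIs, and a deeper cell shows a UMI of a weakly expressed gene more readily. Thinning cells to 5000 UMIs left 4731, 3271 and 7320 cells deep enough. The rule then found 253, 127 and 357 members, or 5.35%, 3.88% and 4.88% of cells. The ratios were 0.726 (0.589 to 0.894) and 0.912 (0.780 to 1.07). Thinning to 10000 UMIs left 3748, 3171 and 6481 cells and gave 0.876 (0.713 to 1.08) and 1.19 (1.01 to 1.40). When all 3 marker genes were required, 175, 119 and 226 cells remained, and their share of kept cells was 3.53%, 3.32% and 2.89%, with ratios of 0.943 (0.750 to 1.19) and 0.819 (0.675 to 0.994). Over non-cycling fibroblasts the ratio for the library labelled Tbx1neo2/neo2 was below 1 in each of these settings, at 0.331 (0.278 to 0.393) as measured, 0.444 (0.366 to 0.540) at 5000 UMIs, 0.254 (0.213 to 0.304) at 10000 UMIs and 0.557 (0.449 to 0.693) with all 3 genes. At 10000 UMIs the control kept 384 non-cycling fibroblasts, 52.3% of them members, and the library labelled Tbx1neo2/neo2 kept 1119. Control members were deeper than control fibroblasts with more Sfrp2 than marker UMIs (medians 10327 and 8597.5 UMIs). The ratio at 10000 UMIs thus also reflects which cells were deep enough.

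**Figure D1:**
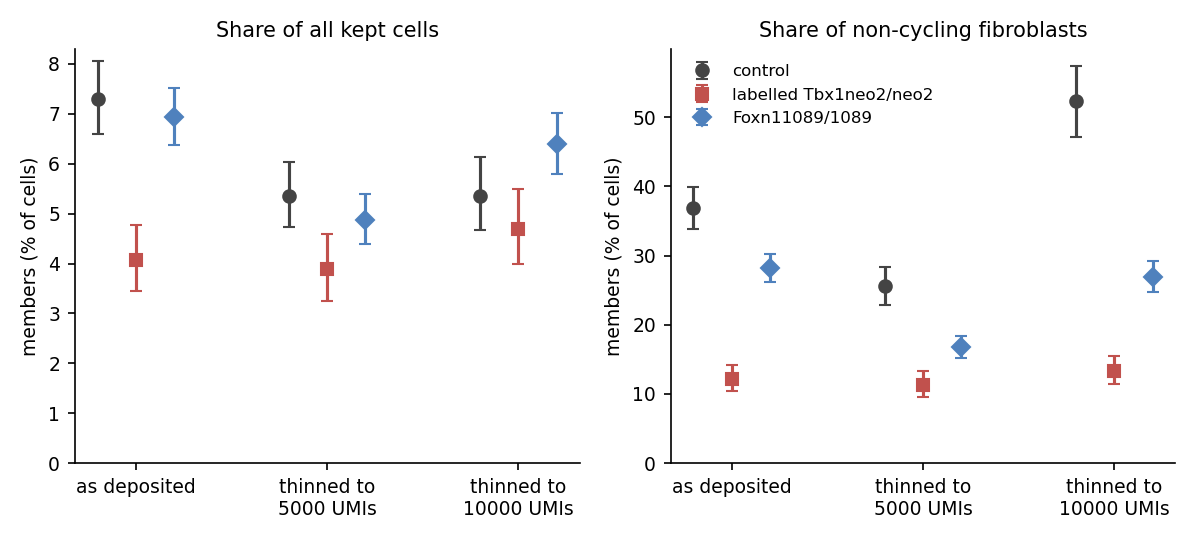
Share of Aldh1a2 Kcnj8 Abcc9 fibroblasts (percent) in each library, of all kept cells (left) and of non-cycling fibroblasts (right), as deposited and with cells thinned to 5000 or 10000 UMIs, with exact binomial 95% intervals. As deposited, members made up 7.30% of kept cells in the control against 4.08% in the library labelled Tbx1neo2/neo2 and 6.93% in the Foxn11089/1089 library.

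Members differed among themselves in which of the 3 genes they carried. In the control 48.3% of members had a UMI of all 3 genes, 25.4% had Kcnj8 and Abcc9 without Aldh1a2, 17.4% had Aldh1a2 and Kcnj8, and 8.84% had Aldh1a2 and Abcc9. The library labelled Tbx1neo2/neo2, the deepest, had all 3 genes in 81.5% of members, and the Foxn11089/1089 library in 41.7%. Aldh1a2 with Abcc9 but without Kcnj8 was more frequent in the Foxn11089/1089 library, at 26.4%, than in the control, at 8.84%, or the library labelled Tbx1neo2/neo2, at 3.42%. Lum and Tcf21 were found together in 72.9%, 77.4% and 70.5% of members, Lum alone in 26.5%, 19.2% and 28.4%, and Tcf21 alone in 0.552%, 3.42% and 1.11%. Sfrp2 was at 0 in 73.8%, 34.2% and 47.6% of members.

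Over all non-cycling fibroblasts the 2 channel genes were found in the same cells more often than their separate frequencies give. In the control 306 cells had both, against 215 if the genes were independent, a ratio of 1.42, and the ratio was 2.19 in the library labelled Tbx1neo2/neo2 and 1.43 in the Foxn11089/1089 library. Aldh1a2 with Kcnj8 gave ratios of 1.30, 1.52 and 1.25, and Aldh1a2 with Abcc9 1.38, 1.47 and 1.29. With cells thinned to 5000 UMIs, Kcnj8 with Abcc9 gave 1.43, 2.68 and 1.52, and at 10000 UMIs 1.22, 2.30 and 1.42. The control's ratios of Aldh1a2 with Kcnj8 and with Abcc9 were 1.31 and 1.33 at 5000 UMIs and 1.04 and 1.06 at 10000 UMIs. In the control the excess for Aldh1a2 was thus small among the deeper cells. These were 384 fibroblasts with each gene in 52.9% to 63.8% of them, which limits how high a ratio can be. At 10000 UMIs the same ratios were 1.72 and 1.71 in the library labelled Tbx1neo2/neo2. They were 1.16 and 1.21 in the Foxn11089/1089 library.

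At the edge of the rule, 8, 5 and 36 members had a marker sum just equal to their Sfrp2 count, and 7, 3 and 16 cells missed the rule by 1 UMI. A further 61, 224 and 223 non-cycling fibroblasts carried 2 of the 3 genes but had more Sfrp2, with a median marker sum of 3, 5.5 and 4 UMIs beside a median Sfrp2 count of 11, 54 and 15 UMIs. The Sfrp2 counts of such cells were highest in the library labelled Tbx1neo2/neo2. Members with 3 proliferation genes, just inside the limit, numbered 30, 16 and 46, and cells with 4, just outside it, 38, 17 and 66.

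Of all cells that met the rule apart from the proliferation limit, 142, 97 and 354 were cycling, or 28.2% (24.3 to 32.3), 39.9% (33.7 to 46.4) and 39.5% (36.3 to 42.8). Among fibroblasts whose Sfrp2 count exceeded the marker sum, the share was 11.3% (8.73 to 14.4) of 521, 18.3% (16.1 to 20.8) of 1080 and 17.2% (15.2 to 19.4) of 1289. The marker-positive fibroblasts therefore held more cycling cells than the Sfrp2-high ones within each of the 3 libraries. At 5000 UMIs per cell the shares were 18.6%, 21.1% and 24.5% against 7.61%, 10.2% and 11.5%. At 10000 UMIs they were 34.5%, 33.8% and 36.9% against 26.6%, 13.6% and 18.3%. In the control the intervals at 10000 UMIs overlapped (29.2 to 40.1 and 19.8 to 34.3, the latter from 154 cells). Cycling here means only that at least 4 of the 5 proliferation genes had a UMI.

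The class was set beside 2 others, each summed per library. Sfrp2-high fibroblasts were non-cycling fibroblasts with more Sfrp2 than marker UMIs (462, 882 and 1067 cells). Pericyte-gated cells had Rgs5 and at least 2 of Acta2, Tagln, Myl9 and Notch3, no Tcf21, Lum, Epcam, Ptprc, Pecam1 or Cdh5, and fewer than 4 proliferation genes (12, 106 and 14 cells). Aldh1a2 stood at 176, 268 and 284 CPM in members, 46.4, 39.2 and 46.5 CPM in Sfrp2-high fibroblasts and 0, 13.2 and 0 CPM in pericyte-gated cells. Its order between the 2 fibroblast classes was set by the gates, while the pericyte gate did not use it. Kcnj8 stood at 285, 284 and 121 CPM in members, 62.1, 41.4 and 52.5 CPM in Sfrp2-high fibroblasts and 112, 114 and 202 CPM in pericyte-gated cells. Abcc9 stood at 154, 179.7 and 121 CPM (142 to 167, 167 to 193 and 113 to 129), 24.9, 32.6 and 34.3 CPM and 23.9, 84.2 and 72.7 CPM in the same order of classes. Both channel genes were therefore shared with pericyte-gated cells, and Kcnj8 in the Foxn11089/1089 library was higher there than in members. Lum did not separate the fibroblast classes, at 985, 906 and 1280.2 CPM in members and 1088, 777 and 1090.3 CPM in Sfrp2-high fibroblasts, while Tcf21 stood at 298, 187 and 221 CPM and 142, 65.3 and 91.6 CPM. Sfrp2 itself stood at 46.2, 102 and 90.6 CPM in members, 1593, 1419 and 1117 CPM in Sfrp2-high fibroblasts and 2089, 1558 and 1629.9 CPM in pericyte-gated cells, whose gate did not use it.

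**Figure D2:**
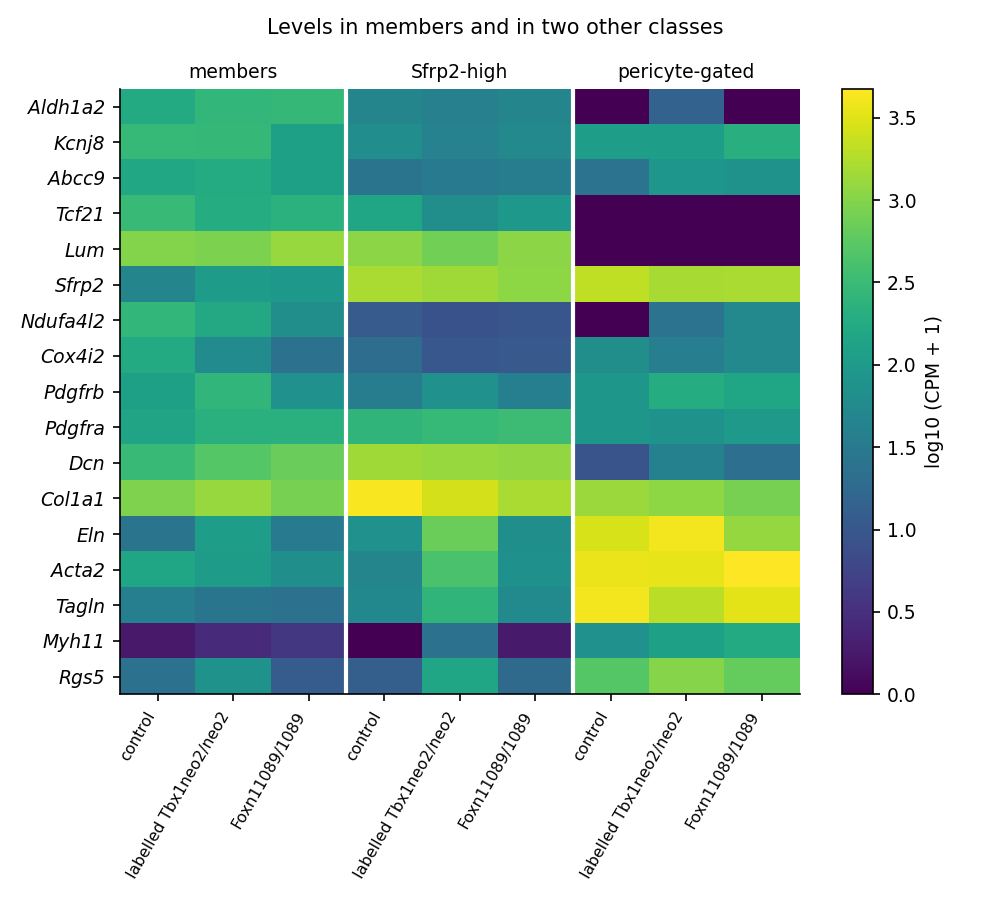
Heat map of levels, as log10 (CPM + 1) by colour, for the genes of the rule and selected fibroblast, matrix and mural genes (rows) in members, Sfrp2-high fibroblasts and pericyte-gated cells of each library (columns). The levels of the rule's genes in the 2 fibroblast classes were set by the gates, and Kcnj8, Abcc9 and Sfrp2 were also present in pericyte-gated cells, where Tcf21 and Lum are 0 by the gate.

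Free RNA in the droplets was gauged in red blood cells, defined by at least 50% hemoglobin UMIs, all thinned to 5000 UMIs. Kcnj8 then had a UMI in 87.0, 92.9 and 64.7% of members, 18.9, 14.1 and 18.7% of Sfrp2-high fibroblasts and 0.309, 0 and 0.287% of red blood cells. Aldh1a2 had one in 72.7, 70.1 and 80.4% of members and 0, 0.559 and 0.478% of red blood cells, and Abcc9 in 68.0, 74.8 and 72.5% and 0.309, 0 and 0.239%. The rule fixes high shares in members, so only the red blood cell shares, of 0 to 0.559%, are read here, as the level that free RNA gives.

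Fibroblast markers that the rule did not use were present in members. Pdgfra, Col1a1, Col1a2, Col3a1, Dcn, Prrx1, Twist1 and Postn summed to 4491, 7241 and 6113 CPM in members, against 11352, 10837 and 8330.4 CPM in Sfrp2-high fibroblasts and 3890.4, 4852 and 4479.6 CPM in pericyte-gated cells. In the control this sum was therefore close between members and pericyte-gated cells, and it does not by itself tell them apart. The 14 pericyte and smooth muscle markers summed to 1008, 1081 and 659.9 CPM in members and 10571, 9316 and 12624 CPM in pericyte-gated cells, whose gate had used 5 of the 14. Acta2, the smooth muscle actin, stood at 151, 103 and 67.8 CPM in members and 3755, 3427 and 4744 CPM in pericyte-gated cells, whose gate used it. A UMI of Rgs5, Pecam1 or Cdh5 was nevertheless present in 14.6%, 52.1% and 12.0% of members, most often in the deepest library. Endothelial markers summed to 42.6 to 62.4 CPM in members, with Cdh5 at 0 in the control and Tie1 at 0 in the library labelled Tbx1neo2/neo2, and epithelial markers to 23.4 to 38.5 CPM. Hematopoietic markers summed to 7.64 to 8.72 CPM, and red blood cell markers to 110.1, 121 and 751 CPM. Glial and neuronal markers summed to 3.34 to 6.49 CPM and skeletal muscle markers to 0.257 to 1.62 CPM. Cartilage markers summed to 29.8 to 39.2 CPM, mostly from Sox9, with Acan and Matn1 at 0. Mesothelial markers were uneven, at 5.65, 103 and 34.4 CPM.

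Mesothelial transcripts lay in few cells. In the library labelled Tbx1neo2/neo2 6 of 146 members carried at least 2 of Msln, Upk3b, Krt19, Lrrn4 and Upk1b, and these 6 held 194 of 194 Upk3b UMIs and 236 of 1157 Aldh1a2 UMIs (20.4%). The control had 1 such member of 362 and the Foxn11089/1089 library 4 of 542. Mesothelial cells also express Aldh1a2, and without these cells Aldh1a2 stood at 172, 228 and 272 CPM in members, so that the level in the library labelled Tbx1neo2/neo2 was lower than the 268 CPM measured with them. This split was chosen after the data were seen.

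Beyond the genes of the rule, Ndufa4l2, Cox4i2, Etv4 and all 16 DNA replication genes tested were higher in members than in Sfrp2-high fibroblasts. The retinoic acid binding protein genes Crabp1 and Crabp2, 5 of 13 Hox genes, 14 of 26 collagens and 15 of 41 growth factors were lower. The 2 classes came from the same 3 libraries, and the library was a block in edgeR's quasi-likelihood fit, with p-values adjusted by Benjamini-Hochberg. Of 11907 genes tested, 1594 (13.4%) were higher and 1246 (10.5%) lower in members at an adjusted p under 0.05, together 23.9%. The median log2 fold change over all genes was 0.00. All list counts against Sfrp2-high fibroblasts stand beside these shares. The gates and the tested genes were read from the same cells, and members were somewhat deeper than Sfrp2-high fibroblasts, whose medians were 8597.5, 22846.5 and 11908 UMIs. Leaving out the control, the library labelled Tbx1neo2/neo2 or the Foxn11089/1089 library left 427, 957 or 715 higher and 375, 725 or 674 lower genes, and thinning every cell to 5000 UMIs left 984 higher.

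Ndufa4l2, a mitochondrial protein gene (chr10:127514967-127517154, plus strand) also used as a pericyte marker, led the genes higher in members. It stood at 271, 163 and 64.0 CPM in members and 10.3, 7.36 and 8.58 CPM in Sfrp2-high fibroblasts (log2 fold change 4.10, SE 0.34, adjusted p = 0.00241). The classes did not overlap, and within members the control was highest and the Foxn11089/1089 library lowest. At 5000 UMIs, Ndufa4l2 had a UMI in 59.7, 55.9 and 24.1% of members, 3.87, 2.45 and 3.45% of Sfrp2-high fibroblasts and 0.617, 0 and 0.143% of red blood cells. Cox4i2, another mitochondrial subunit gene known from perivascular cells, stood at 177, 58.4 and 23.3 CPM against 19.6, 8.81 and 9.57 CPM (log2 fold change 2.53, SE 0.34, adjusted p = 0.00646). Both genes followed the same order of libraries in members.

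Gucy1b3, a subunit of the nitric oxide receptor guanylate cyclase, stood at 105, 121 and 49.7 CPM in members and 16.6, 20.8 and 20.9 CPM in Sfrp2-high fibroblasts (log2 fold change 2.21, SE 0.28, adjusted p = 0.00546). Ano1, a calcium-activated chloride channel gene, stood at 55.4, 79.5 and 31.9 CPM against 10.5, 8.37 and 6.68 CPM (log2 fold change 2.80, SE 0.21, adjusted p = 0.00201). Cygb, which encodes the oxygen-binding protein cytoglobin, stood at 82.9, 70.5 and 26.2 CPM against 20.8, 8.95 and 9.11 CPM (log2 fold change 2.31, SE 0.27, adjusted p = 0.00464). For these 3 genes every library had more in members, as the choice of named genes required. Nes, an intermediate filament gene, was level across the libraries at 68.5, 68.0 and 64.0 CPM against 17.8, 16.3 and 18 CPM (log2 fold change 2.04, SE 0.10, adjusted p = 0.00170). Ets1, a transcription factor gene, stood at 117, 101 and 52 CPM against 27.1, 21.8 and 19.4 CPM (log2 fold change 2.01). The protease inhibitors Serpine2 and Timp3 were higher as well: Serpine2 stood at 422, 422 and 229 CPM against 63.5, 129 and 84.2 CPM, and Timp3 at 116, 170 and 197 CPM against 25.9, 50.2 and 52.3 CPM. The interferon-induced membrane protein genes Ifitm1 and Ifitm3 stood at 691, 404 and 282 CPM and 723, 409.8 and 261 CPM in members, against 177, 37.4 and 134 CPM and 198, 80.5 and 125 CPM. Gm13889, Ccl2 (a chemokine), Fam162b and Chst1 (a sulfotransferase) completed the 15 genes with the highest fold changes, and Ccl2 stood at 94.2, 84.4 and 16.4 CPM against 23.0, 4.38 and 4.71 CPM. Without the control library Ifitm1, Fam162b and Ccl2 lost the call in edgeR's quasi-likelihood fit (adjusted p = 0.0903, 0.0721 and 0.0536).

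Among the genes lower in members, Fbln5, an elastic fibre glycoprotein gene, had the largest fold change. It stood at 0.257, 22.7 and 4.68 CPM in members and 39.6, 306 and 46.7 CPM in Sfrp2-high fibroblasts (log2 fold change -3.71, SE 0.28, adjusted p = 0.00201). Gsc, the homeobox gene goosecoid, stood at 2.82, 11.1 and 4.19 CPM against 66.2, 58.6 and 40.7 CPM (log2 fold change -3.09, SE 0.30, adjusted p = 0.00321), and Ogn, a small leucine-rich proteoglycan gene, at 3.59, 22.3 and 15.9 CPM against 70.9, 197 and 74.1 CPM (log2 fold change -2.85, SE 0.28, adjusted p = 0.00313). In each of these genes the class difference had the same direction in every library, as the choice of named genes required. The library labelled Tbx1neo2/neo2 had the most Fbln5 and Ogn in both classes. Gm26771, Mfap5, Col9a1, Iigp1, Col9a2, Smoc2, Mecom, Hmcn1, Sdpr and Ncam1 followed, at log2 fold changes between -3.09 and -2.03. Iigp1 lost the call without the control library (edgeR, adjusted p = 0.0868).

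**Figure D3:**
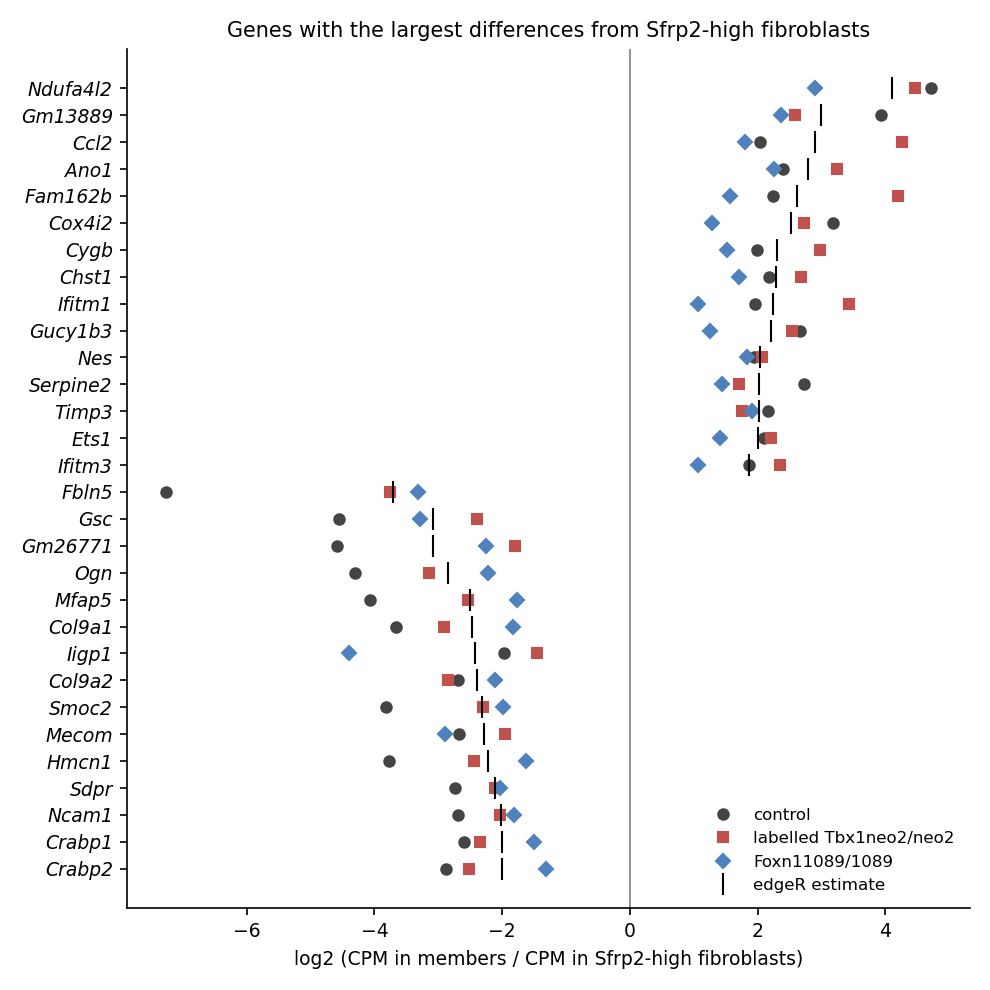
Log2 ratio of CPM in members to CPM in Sfrp2-high fibroblasts within each library (points) and edgeR's estimate (bars) for the 15 genes with the highest and the 15 with the lowest fold change. All points of a gene lie on 1 side of 0 because the choice of these genes required it. Ndufa4l2 and Fbln5 were the extremes, at estimates of 4.10 and -3.71.

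Genes of the retinoic acid pathway other than Aldh1a2 did not follow it. Of 13 tested (18 listed), none was called higher by edgeR, by an unadjusted p under 0.05 or by DESeq2, and 6 were lower, with a median log2 fold change of -0.84 beside 0.00 over all genes, and only 1 of the 13 had a fold change above 0. Crabp1 and Crabp2 encode proteins that bind retinoic acid inside the cell. Crabp1 stood at 55.2, 71.0 and 117 CPM in members and 336, 359.7 and 331 CPM in Sfrp2-high fibroblasts (log2 fold change -2.01, SE 0.19, adjusted p = 0.00296), and Crabp2 at 15.1, 22.7 and 48.2 CPM against 111, 131 and 119.8 CPM (adjusted p = 0.00632). Both were lowest in the control members. Cyp26b1, which encodes a retinoic acid degrading enzyme, stood at 0, 1.39 and 2.96 CPM against 7.58, 8.42 and 10.2 CPM (log2 fold change -2.38, SE 0.49, adjusted p = 0.0197). Dhrs3 and Rdh10 encode enzymes that interconvert retinol and retinaldehyde. Dhrs3 stood at 5.90, 10.4 and 11.1 CPM against 59.9, 39.7 and 26.0 CPM (log2 fold change -1.91) and Rdh10 at 10.8, 23.4 and 26.2 CPM against 44.7, 60.9 and 40.3 CPM (log2 fold change -1.14). The receptor gene Rarg was the sixth (log2 fold change -0.84). Of the 14 genes of ATP-sensitive and inward rectifier potassium channels, Kcnj8 and Abcc9 aside, 1 (Kcnj2) had enough UMIs to test and it passed neither in edgeR, at an unadjusted p under 0.05 included, nor in DESeq2.

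Target genes of growth factor signalling were higher in members in 11 and lower in 2 of 23 tested (24 listed), with a median of 0.75. Etv4, an ETS factor gene induced by FGF, stood at 22.8, 19.2 and 16.4 CPM in members and 1.22, 1.78 and 1.52 CPM in Sfrp2-high fibroblasts (log2 fold change 3.66, SE 0.22, adjusted p = 0.00170). At 5000 UMIs it had a UMI in 10.7, 11.8 and 8.96% of members, 0.484, 1.01 and 0.789% of Sfrp2-high fibroblasts and 0, 0 and 0.287% of red blood cells. The levels were close to each other across the 3 libraries in members. Dusp6, an ERK phosphatase gene, stood at 42.6, 35.7 and 31.6 CPM against 7.82, 7.08 and 8.51 CPM (log2 fold change 2.29, SE 0.15, adjusted p = 0.00170), and Spry2, an inhibitor of receptor tyrosine kinase signalling, at 664, 182 and 187 CPM against 239.8, 50.9 and 98.6 CPM (log2 fold change 1.51, SE 0.17, adjusted p = 0.00442). Spry2 was higher in the control than in the other libraries in both classes. The Wnt target Sp5 stood at 7.70, 5.57 and 33.1 CPM against 2.44, 1.16 and 4.94 CPM (log2 fold change 2.50, SE 0.24, adjusted p = 0.00288), and the Notch target Hes1 at 123, 202 and 124 CPM against 66.2, 102 and 77.2 CPM (log2 fold change 0.96, SE 0.09, adjusted p = 0.00281). Ptch1, the Hedgehog receptor and target, was lower (log2 fold change -1.30). Leaving out the control, the library labelled Tbx1neo2/neo2 or the Foxn11089/1089 library gave 8 and 0, 13 and 1, and 8 and 2 higher and lower.

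All 16 DNA replication genes tested were higher in members, with a median log2 fold change of 0.94, although cells with 4 or more proliferation genes had been left out of both classes. Cdc6, a licensing factor gene, had the largest fold change (log2 fold change 1.49, SE 0.15, adjusted p = 0.00363), followed by Rrm2 and Cdc45 (log2 fold changes 1.43 and 1.20). Mcm3, a helicase subunit gene, stood at 95.2, 142 and 159 CPM against 55.2, 80.3 and 79.2 CPM, and Pcna, the sliding clamp gene, at 72.1, 68.0 and 59.8 CPM against 38.1, 41.3 and 31.4 CPM. The count was 15 without the control library, 15 without the Foxn11089/1089 library and 15 at 5000 UMIs per cell. The share of cycling cells was also higher among marker-positive fibroblasts, and the part of cells just under the proliferation limit in this result was not tested.

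**Figure D4:**
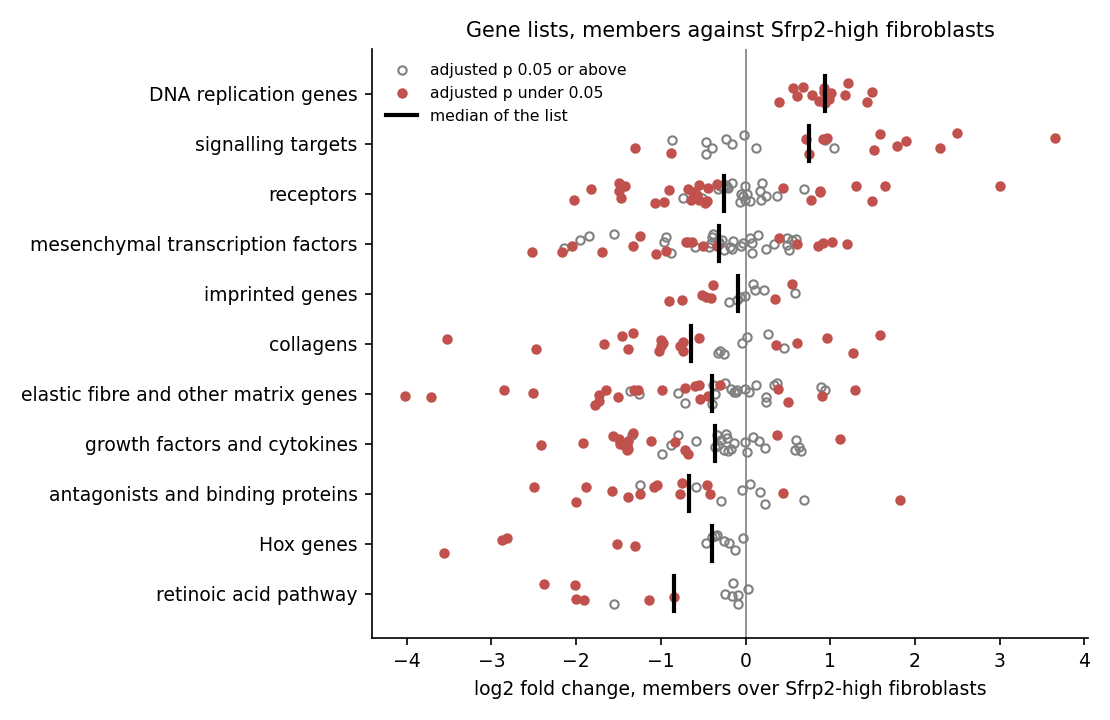
Fitted log2 fold changes of members over Sfrp2-high fibroblasts for the genes of each list, 1 point per gene, filled at an adjusted p under 0.05, with a bar at the median of each list. All 16 DNA replication genes lie above 0, and 6 of 13 retinoic acid genes were called lower.

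Of 41 growth factors tested (49 listed), 2 were higher in members, 15 were lower and 24 were not called, with a median of -0.36. Igf1, an insulin-like growth factor, stood at 243, 268 and 599 CPM in members and 1323, 618 and 1136 CPM in Sfrp2-high fibroblasts (log2 fold change -1.40, SE 0.26, adjusted p = 0.0139). Cxcl12, a chemokine for hematopoietic progenitors, stood at 167, 339 and 144 CPM against 572, 685 and 475 CPM (log2 fold change -1.39, SE 0.15, adjusted p = 0.00397). Both were lower in members of every library. Rspo3, a Wnt enhancer, stood at 23.9, 54.0 and 75.3 CPM against 114, 160.2 and 166 CPM (log2 fold change -1.48), and Fgf18 and Wnt11 were lower by more (-2.42 and -1.92). Tgfb1 and Bmp4 were the 2 called higher (log2 fold changes 1.11 and 0.37). Leaving out the control, the library labelled Tbx1neo2/neo2 or the Foxn11089/1089 library gave 0 and 11, 1 and 9, and 1 and 15 higher and lower. Secreted antagonists and binding proteins were higher in 2 and lower in 12 of the 22 tested (26 listed) (median -0.67). Igfbp5 stood at 133, 596 and 592 CPM against 632, 1536 and 1157 CPM (log2 fold change -1.39), and the BMP antagonist Grem1 had a log2 fold change of -2.50. The Wnt inhibitor Dkk1 was one of the 2 higher (1.83). Leaving out each library in turn gave 1 and 6, 0 and 7, and 0 and 8 higher and lower.

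Genes for receptors were higher in 8 and lower in 19 of the 50 tested (52 listed) (median -0.25). Pdgfrb, the PDGF receptor of pericytes and mesenchyme, stood at 122, 264 and 71.3 CPM in members and 34.5, 71.4 and 37.6 CPM in Sfrp2-high fibroblasts (log2 fold change 1.64, SE 0.20, adjusted p = 0.00518). Pdgfra, the fibroblast PDGF receptor, went the other way, at 138, 211 and 211 CPM against 249, 292 and 331 CPM (log2 fold change -0.55, SE 0.08, adjusted p = 0.00746). Members thus had more of one PDGF receptor and less of the other than Sfrp2-high fibroblasts. Thy1, a surface glycoprotein gene, stood at 18.2, 16.9 and 21.2 CPM against 1.47, 2.50 and 3.04 CPM (log2 fold change 3.01, SE 0.21, adjusted p = 0.00189). Notch1 was higher (log2 fold change 1.49), and Fgfr2 was lower (-1.82). Leaving out each library in turn gave 5 and 7, 5 and 10, and 6 and 15 receptor genes higher and lower.

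Transcription factors of mesenchyme were higher in 6 and lower in 12 of the 51 tested (57 listed) (median -0.32). The share higher did not exceed the 13.4% over all genes. Tbx2 and Alx1 were among the higher ones (log2 fold changes 1.02 and 1.19), and Foxf1 and Isl1 were the lowest (-2.52 and -2.17). Tbx1, the gene of the hypomorphic allele, stood at 1.28, 1.85 and 1.48 CPM in members and 8.80, 7.46 and 5.54 CPM in Sfrp2-high fibroblasts (log2 fold change -2.05, SE 0.28, adjusted p = 0.00657), so the class difference was found in each library. Leaving out each library in the same order gave 3 and 8, 6 and 9, and 7 and 15 higher and lower. Hox genes, which record position along the body axis, were higher in 0 and lower in 5 of the 13 tested (23 listed) by edgeR (median -0.40). No Hox gene was higher at an unadjusted p under 0.05 or by DESeq2. Hoxa5 stood at 1.28, 4.87 and 1.97 CPM against 10.5, 93.5 and 15.3 CPM (log2 fold change -3.56, SE 0.27, adjusted p = 0.00201), and Hoxa4 at 2.57, 11.4 and 3.57 CPM against 21.5, 71.7 and 31.9 CPM (log2 fold change -2.81, SE 0.15, adjusted p = 0.00170). In both classes the library labelled Tbx1neo2/neo2 had the most of both genes. Without the control library 2 Hox genes were called lower.

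Matrix genes split by type. Collagens were higher in 5 and lower in 14 of the 26 tested (30 listed) (median -0.64). The basement membrane collagen Col4a1 stood at 363, 438 and 150.2 CPM in members and 84.1, 134 and 96.0 CPM in Sfrp2-high fibroblasts (log2 fold change 1.58, SE 0.27, adjusted p = 0.0115), with Col4a2 and Col18a1 also higher (log2 fold changes 1.27 and 0.97). The fibrillar collagen Col1a1 stood at 919, 1273 and 831 CPM against 4330, 2794 and 1619 CPM (log2 fold change -1.33, SE 0.22, adjusted p = 0.0105), and Col1a2 at 506, 1135 and 842 CPM against 1508, 2362 and 1434 CPM (log2 fold change -1.02). Col14a1, a collagen that associates with fibrils, had the lowest log2 fold change (-3.53). Members thus had more of these basement membrane collagens and less of these fibrillar ones. Leaving out each library in the usual order gave 0 and 10, 4 and 11, and 4 and 13 collagens higher and lower. Elastic fibre and other matrix genes were higher in 4 and lower in 18 of the 43 tested (45 listed) (median -0.40). Eln, elastin, stood at 24.9, 111 and 30.6 CPM against 71.8, 701 and 65.9 CPM (log2 fold change -1.74, SE 0.29, adjusted p = 0.0111), and Dcn, decorin, at 309, 509.7 and 682 CPM against 1426, 1274 and 1183 CPM (log2 fold change -1.32, SE 0.23, adjusted p = 0.0115). Sparcl1, a matricellular glycoprotein, was higher at 169, 153 and 263 CPM against 101, 47.7 and 123 CPM (log2 fold change 1.29, SE 0.16, adjusted p = 0.00516). Leaving out the control left 2 and 13. Genes of collagen processing were higher in 1 and lower in 5 of 20, with Ppib higher and Lox, the collagen crosslinking enzyme, lower (0.27 and -1.94).

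Imprinted genes were higher in 2 and lower in 6 of 16, with Mest higher and Meg3 lower (log2 fold changes 0.55 and -0.76). Stress and dissociation genes were higher in 0 and lower in 3 of 16 by edgeR, the 3 being Hspb1, Jun and Jund, while at an unadjusted p under 0.05 there were 3 higher and 5 lower and by DESeq2 1 and 4. A list of 19 genes that the study had picked from these same samples, which is no independent evidence of a direction, was higher in 2 and lower in 12. Of markers of other cell types, 1 of 5 endothelial genes was higher, Emcn at 14.4, 12.3 and 7.39 CPM against 1.71, 2.17 and 2.35 CPM, and no mesothelial, epithelial, hematopoietic, red blood cell, glial or cartilage marker tested (5, 6, 2, 3, 2 and 1 genes) was called by edgeR. At an unadjusted p under 0.05, 1 epithelial and 1 cartilage marker were lower, and DESeq2's Wald test called the cartilage marker lower. Of 13 pericyte and smooth muscle markers tested, Ndufa4l2, Pdgfrb and Cspg4 were higher and Cnn1 and Myl9 lower (median -0.11). Of the 8 fibroblast markers 5 were lower and none higher, by edgeR, by DESeq2 and at an unadjusted p under 0.05.

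Within members, the cells with and without Aldh1a2 differed by several of these genes, which is given as a description since the split uses a gene of the rule. Etv4 stood at 7.43, 5.95 and 5.82 CPM in members with Kcnj8 and Abcc9 but no Aldh1a2 UMI (92, 12 and 63 cells) and at 27.3, 21.3 and 19.2 CPM in members with all 3 genes. Crabp1 stood at 122, 259 and 220.1 CPM against 26.3, 47.8 and 124 CPM. Igf1 stood at 414, 789 and 709 CPM against 153, 197 and 625 CPM. In the sums of each library the members with all 3 genes had more Etv4 and less Crabp1 and Igf1 than those without Aldh1a2. The Etv4 levels without Aldh1a2 rest on few UMIs, fewest in the 12 cells of the library labelled Tbx1neo2/neo2. The order for Etv4 is therefore uncertain in that library. Ndufa4l2 stood at 274, 122 and 51.3 CPM against 297, 182 and 62.9 CPM, also higher with all 3 genes in each library but by a smaller ratio than Etv4.

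Against pericyte-gated cells, with which members share the channel genes, members had less of the contractile genes Myh11 and Cnn1 and of the elastin gene Eln, and more of 5 of 8 fibroblast markers. The pericyte gate asked for Rgs5 and at least 2 of Acta2, Tagln, Myl9 and Notch3, and barred Tcf21 and Lum. Members had Tcf21 or Lum, so the gates favoured these directions for related contractile and fibroblast genes in advance. Of 10569 genes tested, 553 (5.23%) were higher and 627 (5.93%) lower in members, together 11.2%, with a median log2 fold change of 0.06. The comparison rests on 12 and 14 pericyte-gated cells in 2 of the libraries. Its calls do not rest on each gene's own spread over the libraries alone, nor do those against Sfrp2-high fibroblasts. Its p-values were far smaller at a similar fold change and SE, so calls in the contrasts are not equal in meaning. Without the control, the library labelled Tbx1neo2/neo2 or the Foxn11089/1089 library it called 391, 181 or 415 genes higher and 535, 298 or 529 lower. Myh11, smooth muscle myosin, stood at 0.770, 1.85 and 2.96 CPM in members and 71.8, 123 and 176 CPM in pericyte-gated cells (log2 fold change -6.01, SE 0.33). Cnn1, calponin, stood at 1.54, 1.85 and 2.46 CPM against 128, 194 and 192 CPM (log2 fold change -6.42, SE 0.30), and Eln at 24.9, 111 and 30.6 CPM against 2798, 4024 and 1225 CPM (log2 fold change -5.69, SE 0.16). The difference exceeded 10-fold in every library for these 3 genes, each called by edgeR. Fbln5, Sncg, Actg2, Lmod1 and Cryab had log2 fold changes of -7.11, -6.95, -5.90, -5.41 and -5.24. Dcn stood at 309, 509.7 and 682 CPM in members against 7.97, 39.6 and 20.8 CPM (log2 fold change 3.93, SE 0.22), Gdf10, a TGF-beta family ligand, at 246, 284 and 212 CPM against 15.9, 15.9 and 25.9 CPM (log2 fold change 3.92, SE 0.26), and Barx1, a homeobox gene, at 80.6, 69.3 and 172 CPM against 7.97, 6.21 and 5.19 CPM (log2 fold change 3.61, SE 0.32). Sparcl1 stood at 169, 153 and 263 CPM against 0, 14.8 and 0 CPM and was thus at 0 in 2 pericyte-gated libraries. Fam162b, Cygb and Enpp2 were also among the 8 highest fold changes, and Enpp2 did not pass in DESeq2's Wald test (adjusted p = 0.0682).

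By list, fibroblast markers were higher in 5 and lower in 1 of 8 against pericyte-gated cells (median 0.98), and pericyte and smooth muscle markers higher in 1 and lower in 6 of 8 (median -2.02), where the gate had used 5 of the 14 listed. The 1 higher was Ndufa4l2, at 271, 163 and 64.0 CPM in members against 0, 24.5 and 51.9 CPM (log2 fold change 2.53, SE 0.25). DESeq2's Wald test did not call it, and in the Foxn11089/1089 library the classes stood closest. Transcription factors were higher in 19 and lower in 4 of 39 (median 0.58), with Tbx2, Twist1 and Ebf2 among the higher and Foxp1 and Foxc1 among the lower. Growth factors were higher in 12 and lower in 9 of 37 (median 0.27), and Igf1 stood at 243, 268 and 599 CPM against 0, 35.7 and 93.4 CPM. DNA replication genes were higher in 12 of 16 (median 0.78), a count that fell to between 3 and 4 when any 1 library was left out, to 2 at 5000 UMIs per cell and to 1 in DESeq2's Wald test. Signalling targets were higher in 9 and lower in 6 of 21, with the FGF targets Spry2, Dusp6 and Etv4 among the higher and the Notch targets Heyl and Hey2 among the lower.

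Between libraries, members were compared without a test, as log2 ratios of CPM with exact conditional binomial intervals, and a gene was counted at a ratio of at least 2-fold among those with at least 30 UMIs in both libraries together. For the library labelled Tbx1neo2/neo2 over the control, 1516 of 10222 genes (14.8%) were higher and 228 (2.23%) lower, together 17.1%. For the Foxn11089/1089 library over the control, 1039 of 10746 genes (9.67%) were higher and 370 (3.44%) lower, together 13.1%. The median log2 ratio over all genes was 0.36 and 0.25, so single ratios and list medians are to be read against these shifts. Scaling by the median of ratios, which removes them, gave 606 higher and 711 lower for the library labelled Tbx1neo2/neo2 and 574 higher and 641 lower for the Foxn11089/1089 library. The 2 comparisons share the control library. Depth differed between the libraries, and members had 2.60%, 6.06% and 5.82% mitochondrial UMIs at the median. The split between higher and lower genes thus moved with the scaling.

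In the library labelled Tbx1neo2/neo2 the largest ratios in members included those of Capn6, Tsc22d1, Gm10073, Meg3 and Fras1. Capn6, a calpain family gene, stood at 10.3, 77.9 and 22.3 CPM in the 3 libraries, a log2 ratio of 2.92 (2.45 to 3.44), and its ratio in Sfrp2-high fibroblasts was 2.44. Meg3, an imprinted long noncoding RNA, stood at 560.2, 2725 and 1984 CPM, for a log2 ratio of 2.28 (2.22 to 2.35), with 1.93 in Sfrp2-high fibroblasts. Tsc22d1, a leucine zipper factor gene, stood at 63.9, 395 and 245 CPM, for a log2 ratio of 2.63 (2.44 to 2.83), with 2.02 in Sfrp2-high fibroblasts. These differences were thus present in both fibroblast classes. The lowest ratios were those of Lars2, Hist1h2ae, Hist1h2ap, Foxn2, Peg10 and Spry2. Lars2, a mitochondrial leucyl-tRNA synthetase gene, stood at 259.7, 19.2 and 12.1 CPM, with ratios of -3.75 in members and -4.05 in Sfrp2-high fibroblasts. Spry2 stood at 664, 182 and 187 CPM, for a log2 ratio of -1.87 (-1.98 to -1.75), with -2.24 in Sfrp2-high fibroblasts. Spry2 was close between the library labelled Tbx1neo2/neo2 and the Foxn11089/1089 library, both under the control.

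In the Foxn11089/1089 library the largest ratios included those of Gm10073, Alcam, Enpp2, Grin3a and Fibin. Alcam, a cell adhesion molecule gene, stood at 10.3, 46.2 and 78.5 CPM, for a log2 ratio of 2.94 (2.47 to 3.43), against 0.29 (0.15 to 0.43) in Sfrp2-high fibroblasts. Enpp2, the lysophospholipase autotaxin, stood at 39.3, 26.9 and 219 CPM, for a log2 ratio of 2.48 (2.24 to 2.73), against 1.43 in Sfrp2-high fibroblasts, and Fibin at 2.35 against 0.19. The intervals for Alcam in the 2 fibroblast classes did not overlap. The lowest were those of Lars2, Hist1h1b, Hist1h1e, Rasgrp2, Cox4i2 and Jag1. Rasgrp2, a Rap activator gene, stood at 75.2, 44.3 and 8.87 CPM, for a log2 ratio of -3.08 (-3.48 to -2.71), against -0.78 (-1.25 to -0.29) in Sfrp2-high fibroblasts. Cox4i2 stood at 177, 58.4 and 23.3 CPM, for a log2 ratio of -2.92 (-3.16 to -2.69), against -1.03 (-1.45 to -0.61), and Jag1, a Notch ligand gene, at 193, 80.5 and 33.3 CPM, for a log2 ratio of -2.54 (-2.75 to -2.34), against -1.82. Each of these was lowest in the Foxn11089/1089 library and intermediate in the library labelled Tbx1neo2/neo2. The difference between the classes in these ratios was not tested.

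Ndufa4l2 itself, the gene with the highest fold change over Sfrp2-high fibroblasts, stood at 271, 163 and 64.0 CPM (intervals 255 to 288, 151 to 176 and 58.6 to 69.7), with log2 ratios to the control of -0.73 (-0.87 to -0.59) and -2.08 (-2.24 to -1.93). Kcnj8, of the rule, had log2 ratios close to 0 (-0.12 to 0.11) and of -1.23 (-1.36 to -1.11), and Aldh1a2 0.61 (0.47 to 0.75) and 0.69 (0.57 to 0.82). The Kcnj8 and Aldh1a2 values describe cells chosen on those genes, and no difference between libraries is read from them.

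**Figure D5:**
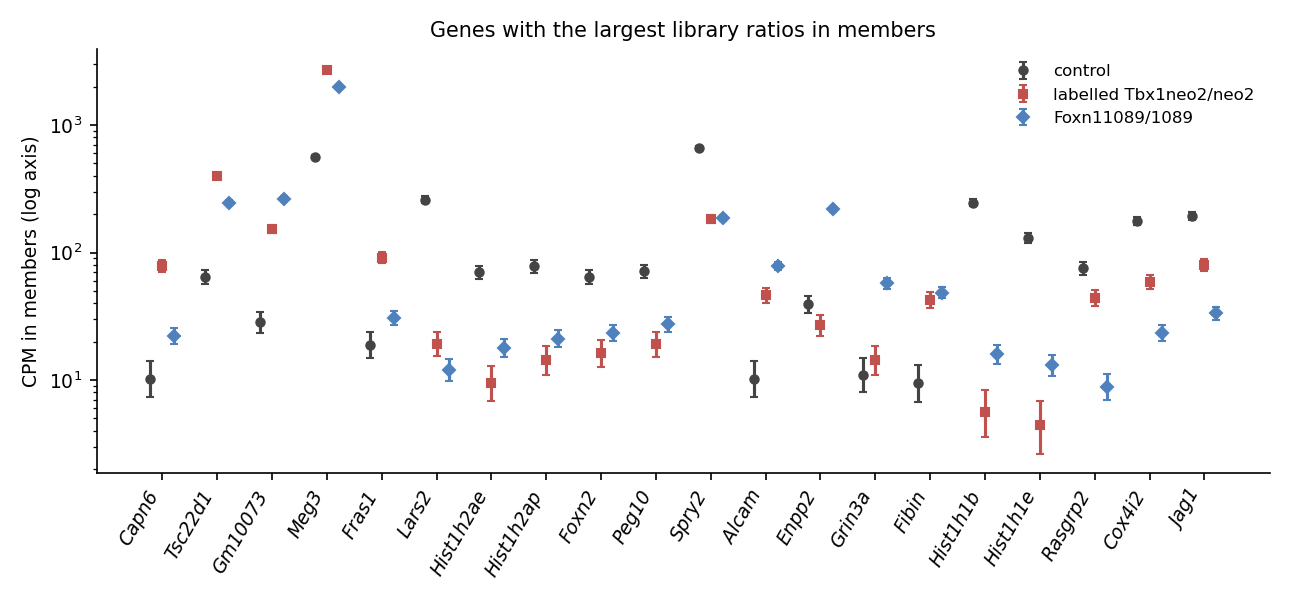
Level (CPM, log axis) in members of each library for the genes with the highest and lowest ratios between libraries, with exact Poisson 95% intervals. Cox4i2 stood at 177, 58.4 and 23.3 CPM and Alcam at 10.3, 46.2 and 78.5 CPM in the 3 libraries.

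By list, the members of the library labelled Tbx1neo2/neo2 lay above the all-gene shift of 0.36 in several lists, matrix genes among them. The counts below stand beside 14.8% higher and 2.23% lower over all genes. At 2-fold, elastic fibre and other matrix genes numbered 13 higher and 0 lower of 41 (median 0.72), collagens 6 higher and 0 lower of 24 (median 0.65) and receptors 13 higher and 1 lower of 47 (median 0.66). Growth factors were 11 higher and 0 lower of 36 (median 0.51), signalling targets 7 higher and 1 lower of 22 (median 0.67) and transcription factors 8 higher and 1 lower of 39 (median 0.47). DNA replication genes were 1 higher and 0 lower of 16 (median 0.20), imprinted genes 2 higher and 1 lower of 16 (median 0.21) and pericyte and smooth muscle markers 2 higher and 0 lower of 11 (median 0.23), with medians under that shift, so that these 3 lists lay below 0 relative to all genes. The study's own 19 genes, chosen on these samples, were 13 higher and 0 lower of 19 (median 1.28). Mesothelium markers were 5 higher and 0 lower of 5 (median 5.29), and the 6 cells described above held every Upk3b UMI of that library's members. Sfrp2-high fibroblasts, with an all-gene shift of 0.33, had matrix genes 13 higher and 2 lower of 45 (median 0.58) and collagens 9 and 0 of 29 (median 0.64). The study's genes were 12 and 0 of 19 there (median 1.25), so these 3 lists were not particular to members. Growth factors (10 and 3 of 44, median 0.23) and pericyte and smooth muscle markers (9 and 0 of 13, median 2.28) differed more between the classes.

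In the Foxn11089/1089 library, where the all-gene shift was 0.25, retinoic acid pathway genes were 6 higher and 0 lower of 11 (median 1.02), growth factors 15 higher and 1 lower of 38 (median 0.87) and transcription factors 15 higher and 1 lower of 42 (median 0.76). Signalling targets were 5 higher and 3 lower of 22 (median 0.13), collagens 3 higher and 2 lower of 24 (median 0.24) and DNA replication genes 0 higher and 0 lower of 16 (median 0.30), with the medians of the first 2 below that shift and the third just above it. Pericyte and smooth muscle markers went the other way, 0 higher and 5 lower of 11 (median -0.87), and red blood cell markers were 3 higher and 0 lower of 3 (median 2.31). These counts stand beside 9.67% higher and 3.44% lower over all genes, and the part of the red blood cell transcripts in them was not tested.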

How the data were processed

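Thymic lobes from E13 to E13.5 C57BL/6 embryos gave 3 droplet (10x 3') libraries, 1 per genotype. As deposited, the files hold whole-number UMI counts per gene and barcode, which the authors made with Cell Ranger 3.0.0 on the mouse build mm10 before clustering in Seurat. No column of per-sample values was left unused (0), and the clustering was not used here. The members and gene lists were chosen with earlier results of these data known.

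Counts were filtered and gated as the report states and summed per class and library. Class contrasts used edgeR 4.0.16 (quasi-likelihood, TMM, Benjamini-Hochberg adjustment at 0.05) in R 4.3.3 with the library as a block, since both classes come from the same libraries, on genes that no gate used. The edgeR filter on low counts was applied. Each library was a sample of its own. The p-values of the Sfrp2-high contrast reflect in part the spread of the class difference over 3 libraries. The quasi-likelihood fit also shares information on spread across genes. P-values of the pericyte-gated contrast were far smaller at a similar fold change and SE. Cygb there (log2 fold change 3.96, SE 0.39) had an unadjusted edgeR p of 1.2e-23. Ndufa4l2 against Sfrp2-high fibroblasts (4.10, SE 0.34) had 1.2e-05. The p-values of neither contrast rest on each gene's own spread over 3 libraries alone, and calls in the contrasts do not mean the same. Libraries were compared by log2 ratios of CPM, with 0.5 UMI added for counts and list medians, among genes with at least 30 UMIs. Exact Poisson, exact binomial and conditional binomial intervals were set at 95%. DESeq2 1.42.0 gave an alternative test. Likely doublets, scored with Scrublet in scanpy 1.11.5 at a rate of 0.8% per 1000 barcodes, were kept in the main result, where they numbered 1, 5 and 15 members, and left out in an alternative. Alternatives also covered a minimum of 5000 UMIs, a 10% mitochondrial limit, thinning to 5000 or 10000 UMIs per cell, other normalization, no count filter, other marker and comparison gates, no block, and leaving out each library.

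Named genes were the 15 highest and 15 lowest fold changes against Sfrp2-high fibroblasts and the 8 and 8 against pericyte-gated cells, among called genes with 1 sign in the 3 libraries and a mean of at least 50 CPM in the higher class. Between libraries they were the 6 highest and 6 lowest ratios with at least 300 UMIs together and 30 in each. Gate, mitochondrial, ribosomal, hemoglobin and sex-linked genes, Gm42418 and AY036118 were left out of these rankings, and up to 6 genes were named per list. Of the genes these rules name, 2 are not reported here. In simulated counts for the Sfrp2-high contrast (11778 genes) the fit called 80.5% of genes changed by 1 log2 unit, 100% of those changed by 2 and 0.10% of unchanged genes. For the pericyte-gated contrast (10290 genes) it called 48.8%, 95.1% and 0.04%. These simulations gave every gene the same fixed dispersion, which was not estimated from these data. The shares therefore need not hold for genes with more spread between libraries. Simulated library ratios lay within their intervals for 96.1% of 10233 genes (Tbx1neo2/neo2) and 96.0% of 10757 genes (Foxn11089/1089). They were drawn with counting error only, as the intervals assume, so they check the calculation and not the spread between libraries. Gene positions come from GENCODE annotation of GRCm38, matched by Ensembl identifier, and promoters from RefSeq for GRCm38.p6.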

Additional observations from a re-analysis of the deposited data

Results flagged for a closer look

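For 11 reported ratios between libraries, members and Sfrp2-high fibroblasts moved in opposite directions, each by at least 0.5 on the log2 scale, with intervals that left out 0 and at least 100 UMIs in each class. None of these differences between classes was tested, since each genotype had 1 library, and they stand beside all-gene shifts of 0.36 and 0.25 in members.

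In the library labelled Tbx1neo2/neo2, the contractile genes Acta2 and Tagln were lower in members and higher in Sfrp2-high fibroblasts than in the control. The log2 ratio of Acta2 was -0.55 in members and 3.15 in Sfrp2-high fibroblasts, and that of Tagln was -0.54 and 2.28. Of the whole list of pericyte and smooth muscle markers, 2 were at least 2-fold higher and 0 lower of 11 in those members. The median of that list, 0.23, lay under the all-gene shift of 0.36. In Sfrp2-high fibroblasts, skeletal muscle markers summed to 1.47 CPM in the control and 44.1 CPM in that library, and cartilage markers to 47.9 and 216 CPM, and the part of such cells in these ratios was not tested. Enpp2 followed the same pattern, at -0.55 and 1.31. Going the other way, the small heat shock gene Hspb1 was at 0.75 in members and -0.81 in Sfrp2-high fibroblasts. Upk3b, a mesothelial gene, was at 5.45 and -0.90, and in members of that library 194 of its 194 UMIs lay in 6 cells.

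In the Foxn11089/1089 library, Acta2 was at -1.16 in members and 0.58 in Sfrp2-high fibroblasts, and the pericyte gene Rgs5 at -1.11 and 0.58. The retinol dehydrogenase/reductase gene Dhrs3 was at 0.91 in members and -1.21 in Sfrp2-high fibroblasts, and the Wnt ligand gene Wnt2 at 1.47 and -0.71. The matrix genes Fbln2 and Mfap5 were at 0.95 and 1.13 in members and at -0.81 and -1.18 in Sfrp2-high fibroblasts. Pericyte and smooth muscle markers as a list were 0 higher and 5 lower of 11 in these members.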

How the results depend on the processing

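The ratio of member shares to the control was 0.559 for the library labelled Tbx1neo2/neo2, and became 0.331 with non-cycling fibroblasts as the denominator, 0.314 without members carrying Rgs5, Pecam1 or Cdh5, 0.943 with all 3 marker genes required, and 0.726 or 0.876 with cells thinned to 5000 or 10000 UMIs. For the Foxn11089/1089 library (0.950) it became 0.764, 0.819 and 1.19 with the fibroblast denominator, all 3 genes and 10000 UMIs. Against Sfrp2-high fibroblasts, 1594 genes were higher and 1246 lower, beside 50 and 63 with no library block, 984 higher after thinning, 771 lower by DESeq2's Wald test, and 427 to 957 higher and 375 to 725 lower when 1 library was left out. Against pericyte-gated cells (553 and 627) the counts were 225 and 328 after thinning, 184 and 387 by DESeq2's Wald test, 222 and 402 with no block, and 181 to 415 and 298 to 535 with 1 library left out. For the library labelled Tbx1neo2/neo2 over the control, 1516 genes were at least 2-fold higher and 228 lower, beside 775 higher after thinning, 606 and 711 with median-of-ratios scaling and 764 and 139 among genes with 100 UMIs. For the Foxn11089/1089 library (1039 and 370) the last 2 gave 574 and 641, and 629 and 225. The cause of these moves was not tested, except that a higher UMI minimum leaves fewer genes and leaving out a library fewer samples. Of the 30 genes named against Sfrp2-high fibroblasts, 16 lost the call in at least 1 alternative, 16 without the block and 4 without the control library, and no other alternative ended one of those calls. Depth limits the pericyte-gated sums, which hold 12 and 14 cells in 2 libraries, and with 1 library per genotype, genotype and library cannot be told apart.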
